A study of Mus musculus with 106 samples.

Results

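This report describes the 28 genes of cholesterol synthesis and its control by the sterol regulatory element binding proteins (SREBPs) in brain cell types of Huntington's disease (HD) mice. The members were listed by name and found in the count table through their Ensembl identifiers, and all 28 were present among 55401 mouse genes. They comprise 5 enzymes of the early mevalonate steps (Acat2, Hmgcs1, Mvk, Pmvk, Mvd), 3 of the isoprenoid steps (Idi1, Fdps, Ggps1), 3 that make and close squalene (Fdft1, Sqle, Lss) and 8 that turn lanosterol into cholesterol (Cyp51, Tm7sf2, Msmo1, Nsdhl, Hsd17b7, Ebp, Sc5d, Dhcr7). The other members are 5 SREBP regulators (Srebf1, Srebf2, Scap, Insig1, Insig2) and 4 genes of sterol transport and turnover (Stard4, Abca1, Abcg1, Cyp46a1).

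Cholesterol hardly crosses the blood-brain barrier, so the brain makes its own, from acetyl-CoA by way of mevalonate, squalene and lanosterol. When membranes of the endoplasmic reticulum are poor in sterol, SCAP escorts SREBPs to the Golgi, where they are cut and freed to activate genes of the pathway; INSIG proteins hold the SCAP complex back when sterol is plentiful. Glia, above all myelinating oligodendrocytes and astrocytes, make much of the brain's cholesterol, and neurons dispose of it chiefly as 24S-hydroxycholesterol, the product of CYP46A1.

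The RNA came from 45 mice as 106 libraries, 67 from RiboTag immunoprecipitates (IPs) of ribosome-bound RNA and 39 from total RNA (input). All mice were on the 129S4 background, 9 months old, and heterozygous for a Cre driver and for the RiboTag allele, in which Cre adds an HA tag to the ribosomal protein Rpl22. The HD mice carried 1 Huntingtin allele with an expanded repeat (Hdh Q7/Q200), and controls were Hdh Q7/Q7. Drivers were Gad2-IRES-Cre (most GABAergic neurons), PV-IRES-Cre (parvalbumin neurons), vGluT2-IRES-Cre (subsets of glutamatergic neurons) and, for the SST libraries, a driver that the methods do not describe. Cerebrum, without olfactory bulb and cerebellum, was used for every line, and cerebellum for the Gad2 and vGluT2 lines. Control IPs numbered 6 each for cerebral Gad2, PV, cerebral vGluT2 and cerebellar Gad2 and 5 each for SST and cerebellar vGluT2. HD IPs numbered 6 each for cerebral Gad2, cerebral vGluT2, cerebellar Gad2 and cerebellar vGluT2, with 5 for PV and 4 for SST. Total counts over mouse genes ran from 21905238 to 107753596 per library, with a median of 35866734.

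The neuron markers stood where the driver lines place them, with 1 exception. Gad1, Gad2 and Slc32a1 had a median log2 IP to input difference of 1.93 in the cerebral Gad2 IP and -2.90 in the cerebral vGluT2 IP. Slc17a6, which encodes vGluT2, was higher in the cerebral vGluT2 IP by 0.97 and in the cerebellar one by 1.52, but it was also higher in the PV IP (1.20) and the SST IP (1.12). The median over Pvalb, Kcnc2 and Syt2 was 2.38 in the PV IP and that over Sst and Npy 2.97 in the SST IP. In cerebellum, the 5 granule cell markers had a median of 1.05 in the vGluT2 IP, and the 3 Purkinje cell markers one of 2.26 in the Gad2 IP. Oligodendrocyte markers were depleted least in the SST IP, where 5 of 10 were lower than in input and 2 were higher.

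Libraries of total RNA from vGluT2-line cerebellum split by genotype in base composition. For each library, log2 CPM (counts scaled by library total, here also by TMM factors) was taken. Each gene's mean over all libraries of the same preparation and region was then subtracted. The slope of the remainder on transcript GC content was -0.53, -0.40, -0.11 and -0.59 in the 4 control libraries. It was 0.57, 0.30, 0.60 and 0.23 in the 4 HD libraries. The sign of a slope is thus relative to the mean of all cerebellar inputs. The groups did not overlap, so genotype and GC slope cannot be told apart there. Slopes spread as widely in other inputs, for example from -0.80 to 0.41 in control cerebral input of the Gad2 line, but without such a split. The main results that rest on these 8 libraries are followed below by values without them or with the GC trend removed.

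Sex was read from the summed CPM of 4 genes of the Y chromosome (Ddx3y, Uty, Eif2s3y and Kdm5d), which was 12.5 or more in 46 libraries and 0.0753 or less in all others. Of 36 mouse labels with more than 1 library, 3 held libraries of both sexes, all of control mice of the vGluT2 line. In the cerebellar IP, replicates 1 and 4 were female and replicate 3 male, whereas the cerebral IPs labelled as the same mice were of the opposite sex, and the cerebellar and cerebral inputs that share the label of replicate 4 were male as well. At least 1 library of each label is therefore not from the mouse named; which it is, and whether its genotype label holds, was not tested. Fits with mouse as a block rest on these labels. Without the 3 labels, the HD effect gave 0 called members in the cerebral vGluT2 IP (0% of all genes), in cerebral input (0.0336%) and in the differences of vGluT2 minus Gad2 in cerebellum (0.0428%) and cerebrum (0%) and of cerebellum minus cerebrum in vGluT2 (0.0699%, or 0.00699% with mouse as a block), and it gave 20 in vGluT2-line cerebellar input (43.8%). Sex was not even between groups, above all in Gad2-line cerebellar input, where all 3 HD libraries were female and 2 of 3 controls male. With sex as a covariate, the HD effect gave 0 called members wherever it gave 0 without it.

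Levels per length were compared first, in control IPs, as mean RPKM (counts scaled by depth and by exon length). Cyp46a1, which hydroxylates cholesterol for export from neurons, had the highest level of all members in the cerebral vGluT2 IP (88.1, SD 9.84, n = 6) and the cerebral Gad2 IP (87.8, SD 13.0, n = 6), which did not differ beyond their spread. Its level was 59.8 (SD 10.6, n = 5) in the SST IP and 56.96 (SD 4.57, n = 6) in the PV IP, against 28.8 (SD 4.32, n = 6) in the cerebellar Gad2 IP and 10.2 (SD 2.44, n = 5) in the cerebellar vGluT2 IP. The SST and PV levels were alike within their spread, and both cerebellar levels stood apart. Hmgcs1, the enzyme that makes HMG-CoA, ranged from 68.6 (SD 16.6) in the cerebral vGluT2 IP to 23.1 (SD 4.67) in the cerebellar Gad2 IP. At the other end, Abca1, a pump that hands cholesterol to lipoproteins, lay between 0.645 (SD 0.267) in the cerebral vGluT2 IP and 2.55 (SD 0.599) in the cerebellar one. The cyclase gene Lss was also low everywhere, from 1.51 to 2.69, and so was Hsd17b7, a 3-ketosteroid reductase, from 2.15 to 3.40. Ebp, the sterol isomerase, ran against the order of most enzymes, with 31.7 (SD 3.93) in the cerebellar vGluT2 IP and 5.31 (SD 0.678) in the PV IP.

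**Figure D1:**
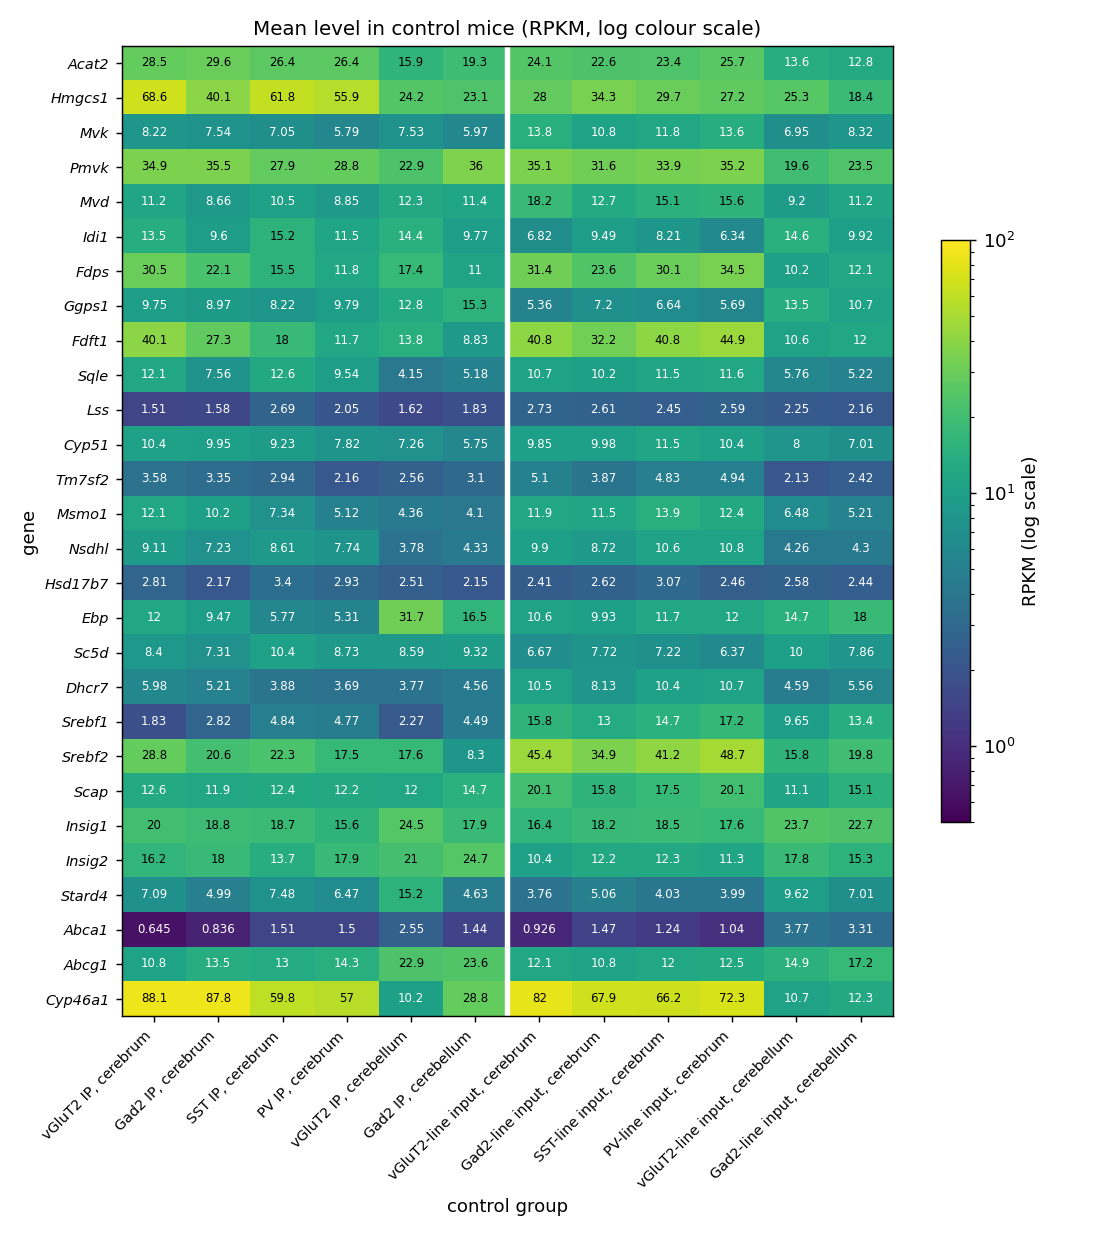
Mean level (RPKM, colour on a log scale) of the 28 members in the control IP and input groups, with members ordered by role. Cyp46a1 stands at 88.1 in the cerebral vGluT2 IP and 10.2 in the cerebellar one, and Srebf1 is higher in inputs than in IPs.

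The 18 enzymes from Acat2 to Dhcr7, without Ggps1, were also summed in CPM in each control IP library. The cerebral vGluT2 IP had the highest sums, from 1033 to 1420 with a median of 1177. The SST IP followed with a median of 969, the cerebral Gad2 IP with 886 and the PV IP with 809. The cerebellar sums were lower, from 654 to 736 in the vGluT2 IP and from 567 to 666 in the Gad2 IP, and neither overlapped any cerebral group. The lowest cerebral vGluT2 library (1033) lay above the highest SST library (1031), whereas the SST range (901 to 1031) overlapped the cerebral Gad2 range (853 to 980).

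The region comparison within vGluT2 neurons asked how the program differs between cerebellum and cerebrum in control mice. Of 28 members, 17 were called (63.2% of all genes tested), 4 higher and 13 lower in cerebellum, and 16 did not overlap between groups (47.4% of all genes). The median log2 difference was -0.20 over members and -0.00 over all genes. Without the 3 mouse labels of both sexes 17 were again called (52.4%), 4 higher and 13 lower. Hmgcs1 CPM was 70.9, 113, 107, 109 and 113 in the cerebellar libraries and had a lowest, median and highest value of 167, 316 and 381 in cerebrum. Every cerebellar library lay under every cerebral one, with a log2 difference of -1.56 (SE 0.19, adjusted p = 8.14e-06). Fdft1, squalene synthase, had 49.3, 50.4, 59.2, 55.1 and 54.5 in cerebellum against 133, 161 and 182 in cerebrum, a difference of -1.60 (SE 0.11). Sqle, the epoxidase that commits squalene to sterols, had 16.7, 22.1, 21.8, 19.2 and 26.5 against 46.5, 64.1 and 77.9, a difference of -1.60 (SE 0.15). Both synthesis genes were thus well separated by region, and 2 later enzymes, the C4-methyl oxidase Msmo1 (-1.52) and the C4 decarboxylase Nsdhl (-1.32), went the same way.

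Ebp went the other way in these neurons. Its CPM was 77.8, 65.5, 67.0, 69.3 and 57.4 in cerebellum and 22.6, 23.8 and 34.8 in cerebrum (log2 difference 1.34, SE 0.13). Even the lowest cerebellar library exceeded the highest cerebral one. Among the regulators, Srebf2, the SREBP that mainly drives cholesterol genes, was lower in cerebellum (-0.77), whereas Srebf1, whose products mainly drive fatty acid genes (0.25), and Insig1, which anchors SCAP (0.24), were not called.

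All 4 members of sterol transport and turnover differed between regions in vGluT2 neurons. Cyp46a1 had 29.7, 27.5, 27.9, 24.2 and 45.3 in cerebellum and 240, 271 and 318 in cerebrum, a log2 difference of -3.16 (SE 0.17, adjusted p = 1.79e-09). Replicate 5 was the highest cerebellar library, yet all 5 were far under the cerebral range. That library also had the highest Slc17a6 (109, others 22.6 to 46.1) and summed Sst and Npy (64.5, others 0.797 to 9.82) and the lowest granule cell markers (4248, others 5411 to 5957), and without it Cyp46a1 was -3.34 and 17 members were again called. Abca1 had 20.4, 34.7, 22.3, 23.2 and 21.4 against 2.52, 6.16 and 10.3, a difference of 1.92 (SE 0.28). Stard4, a carrier that moves sterol between membranes, had 81.7, 69.0, 79.4, 89.4 and 71.7 against 27.1, 38.5 and 47.5, a difference of 1.04 (SE 0.14). Neither gene overlapped between regions, and the exporter Abcg1 was also higher in cerebellum (1.03). Astrocyte markers were higher in the cerebellar IP for 6 of 10 and lower for 2 (median 0.80), oligodendrocyte markers higher for 4 of 10 (median 0.59), and the part of glial RNA in these differences was not tested.

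In Gad2 neurons the same question gave 19 members called (51.1% of all genes), 8 higher and 11 lower in cerebellum, with 13 not overlapping (32.3%). Fdft1 CPM had a lowest, median and highest value of 33.2, 34.4 and 43.5 in cerebellum and 98.0, 115 and 121 in cerebrum (log2 difference -1.64, SE 0.10). Msmo1 (-1.33), the farnesyl diphosphate synthase gene Fdps (-1.01), Hmgcs1 (-0.80) and Sqle (-0.56) were also lower in cerebellum. Srebf2 had 47.9, 57.3 and 64.8 against 121, 139 and 160, a difference of -1.32 (SE 0.10). Cyp46a1 had 76.3, 88.3 and 114 against 221, 269 and 335, a difference of -1.62 (SE 0.12). For each of Fdft1, Srebf2 and Cyp46a1 the highest cerebellar library lay well under the lowest cerebral one. Abcg1 (0.79), Ebp (0.78), Abca1 (0.78) and Srebf1 (0.66) were higher in cerebellum, and Insig1 was not called (-0.08). Of 10 astrocyte markers, 5 were higher in cerebellum and 2 lower (median 0.94), and their summed CPM had a median of 5626 there and 882 in cerebrum, a rise in which Aldoc (3.61) and Slc1a3 (2.76) led. Unlike the other astrocyte markers, Aldoc was higher in the cerebellar Gad2 IP than in input. This sum therefore need not stand for astrocyte RNA alone. The part of astrocyte RNA in the members' differences was not tested.

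Between cell types of the cerebrum, vGluT2 against Gad2 control IPs, 9 members were called (29.8% of all genes), 7 higher and 2 lower in vGluT2 neurons, and 4 did not overlap (18.2%). Without the labels of both sexes 10 were called (24.5%). Hmgcs1 had a lowest, median and highest CPM of 171, 320 and 383 in the vGluT2 IP and 126, 183 and 223 in the Gad2 IP (log2 difference 0.75, SE 0.17). These ranges overlapped through control replicate 1 of the vGluT2 IP (171; other libraries 285 to 383). That library also had the lowest Slc17a6 (42.8, others 110 to 155), a GC slope of 0.45 (others -0.27 to -0.04) and the highest summed striatal markers (451, others 292 to 329). Without it 12 members were called (35% of all genes), 10 higher and 2 lower, with Hmgcs1 at 0.89. Sqle (0.66), Fdft1 (0.54) and Srebf2 (0.46) were higher in the vGluT2 IP with no overlap. Srebf1 had 7.48, 9.58 and 12.2 in the vGluT2 IP against 13.9, 15.5 and 17.6 in the Gad2 IP, a difference of -0.64 (SE 0.13). Each vGluT2 library was under each Gad2 library for Srebf1, and the other gene lower in vGluT2 neurons was Abcg1 (-0.35). Cyp46a1 (-0.01) and Insig1 (0.07) did not differ beyond their errors of 0.11 and 0.12. Glial markers were lower in the vGluT2 IP, with 4 of 10 called for oligodendrocytes (median -0.93) and 3 of 10 for astrocytes (-0.79), and their part was not tested.

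In cerebellum, the vGluT2 against Gad2 comparison gave 14 called members (56.4% of all genes), 8 higher and 6 lower in the vGluT2 IP, with 12 not overlapping (38.7%). Without the labels of both sexes, which left 2 vGluT2 libraries, 10 were called (37%), and Insig1 and Sqle were not among them. Stard4 had 80.8, 69.1, 79.4, 92.0 and 70.0 in the vGluT2 IP and 22.1, 24.2 and 27.2 in the Gad2 IP (log2 difference 1.69, SE 0.11, adjusted p = 5.82e-09). No Gad2 library came near the vGluT2 range. Srebf2 (1.05), Ebp (0.92) and Insig1 (0.43) were higher in the vGluT2 IP, while Cyp46a1 (-1.52), Srebf1 (-1.01) and Pmvk, phosphomevalonate kinase (-0.67), were lower. Sqle was called at -0.34 but lost its call when any of 4 single libraries was left out (adjusted p from 0.0521 to 0.0649), and Hmgcs1 did not differ (0.04, SE 0.16). Astrocyte markers were lower in the vGluT2 IP for 8 of 10 (median -0.75) and oligodendrocyte markers for 7 of 10 (median -0.62), and their part was not tested.

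The comparison of PV with SST interneurons gave 7 called members, all lower in the PV IP (18.2% of all genes called, 8.8% called lower), and 3 did not overlap (12.3%). In all, 24 of 28 were below 0, with a median of -0.21 against -0.04 over all genes. Fdft1 had a lowest, median and highest CPM of 49.2, 56.7 and 61.4 in the PV IP and 89.1, 103, 92.8, 84.2 and 62.8 in the SST IP (log2 difference -0.63, SE 0.12, adjusted p = 0.00277). One SST library (62.8) was near the PV range, but no value overlapped. The others were Msmo1 (-0.52), the sterol C14 reductase Tm7sf2 (-0.44), Sqle (-0.40), Fdps (-0.40), Lss (-0.39) and Srebf2 (-0.36), so all 3 genes of the squalene and lanosterol steps were lower in PV neurons. Hmgcs1 (-0.15), Cyp46a1 (-0.07), Srebf1 (-0.03) and Insig1 (-0.26) were not called. The count depended on single libraries: it was 1 without SST replicate 2, 2 without PV replicate 2 or PV replicate 3, 3 without PV replicate 4, and 4 without PV replicate 1 or PV replicate 5. Oligodendrocyte markers were lower in the PV IP too, 7 of 10 called with a median of -0.65, and their part in the result was not tested.

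Comparison of each IP with input asked which members are enriched or depleted in ribosome-bound RNA of a cell type relative to whole tissue. Libraries of HD and control mice were pooled, and genotype was a covariate, 9 to 12 of each IP against 7 to 18 of input. In such bulk samples, fewer cells of a type and less RNA per cell cannot be told apart. Called members numbered 18 in the cerebral Gad2 IP (63.5% of all genes), 20 in the PV IP (73.2%), 16 in the cerebral vGluT2 IP (63.6%) and 20 in the SST IP (63.4%). The cerebellar counts were 19 for Gad2 (67.4%) and 15 for vGluT2 (68.3%). Members were thus called at about the rate of other genes, except in the cerebellar vGluT2 IP, where their share was lower. Groups did not overlap for 2 members in the cerebral Gad2 IP (14.8% of all genes), 8 in the PV IP (19.6%), 1 in the cerebral vGluT2 IP (15.3%), 6 in the SST IP (24.1%), 3 in the cerebellar Gad2 IP (18.4%) and 2 in the cerebellar vGluT2 IP (20.7%). In the PV IP, 20 members also had an unadjusted p under 0.05 (75% of all genes). More members were lower than higher in each IP, from 14 lower and 4 higher in cerebral Gad2 (32.7% and 30.9% of all genes) to 11 lower and 9 higher in SST (31.2% and 32.2%). Against Gad2-line inputs alone, 12 members were called in the cerebellar vGluT2 IP, 7 higher and 5 lower (61.2% of all genes called), so that order did not hold there, and 18 were called in the cerebellar Gad2 IP (60.5%). With mouse as a block, the count in the cerebral vGluT2 IP was 10 (41.5% of all genes), or 5 (31.7%) without the 3 mouse labels of both sexes. Leaving out those labels and no block gave 15 there (58.1%) and 15 in the cerebellar vGluT2 IP (65.8%).

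Srebf1 was the most depleted member in every IP except that of the PV line. It had a lowest, median and highest CPM of 6.86, 10.4 and 12.0 in the cerebral vGluT2 IP and 48.7, 83.2 and 109 in input (log2 difference -3.04, SE 0.13, adjusted p = 3.41e-19). In the cerebellar vGluT2 IP it had 10.2, 12.8 and 17.4 against 48.6, 75.2 and 110 (-2.55, SE 0.12). In the cerebral Gad2 IP it had 13.7, 16.2 and 21.5 against 49.5, 83.9 and 110 (-2.32, SE 0.11). Every IP library was under every input library for Srebf1 in these 3 comparisons and in the PV (-1.49), SST (-1.56) and cerebellar Gad2 (-1.56) comparisons as well. Srebf2 was lower too, with a log2 difference of -0.91 in the cerebral Gad2 IP, -0.54 in the cerebral vGluT2 IP, -1.17 in the PV IP, -0.84 in the SST IP, -1.38 in the cerebellar Gad2 IP and -0.26 in the cerebellar vGluT2 IP. Without the vGluT2-line inputs its call in cerebellar vGluT2 ended (-0.19, adjusted p = 0.188), while Srebf1 stayed at -2.50 there and at -1.59 in cerebellar Gad2. Insig2, the second SCAP anchor, was higher in all 6 IPs (0.59, 0.38, 0.75, 0.39, 0.75 and 0.29 in the same order; the last 2 were 0.64 and 0.27 against Gad2-line inputs alone), and Insig1 was called in none of the 6, between -0.13 and 0.17. Against inputs of its own line alone, Insig1 in cerebellar Gad2 became -0.28 (adjusted p = 0.0217).

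Among the synthesis enzymes, Mvk, mevalonate kinase, and Dhcr7, which catalyses the last reduction to cholesterol, were lower in all 6 IPs than in input, but Mvk lost its call in the cerebellar vGluT2 IP without the vGluT2-line inputs (-0.18, adjusted p = 0.389). Dhcr7 differed most in the SST IP (-1.24), the PV IP (-1.20) and the cerebellar vGluT2 IP (-0.77, and -0.61 without those inputs). Fdft1 had a lowest, median and highest CPM of 34.7, 48.6 and 59.1 in the PV IP and 96.9, 151 and 216 in cerebral input (log2 difference -1.62, SE 0.10). All PV libraries were below all inputs, and in the SST IP the Fdft1 difference was -1.05. Hmgcs1 was the main enzyme on the high side, with 180, 321 and 396 in the SST IP against 104, 117 and 202 in input (1.22, SE 0.17) and 169, 278 and 375 in the cerebral vGluT2 IP against 43.6, 126 and 306 (0.94, SE 0.22). Its inputs spread widely and reached into both IP ranges. Hmgcs1 was also higher in the PV IP (0.86) and the cerebellar Gad2 IP (0.43, and 0.36 without a call against Gad2-line inputs alone). It was not called in the cerebral Gad2 IP (0.21) or the cerebellar vGluT2 IP (0.41), where it was called without the mouse labels of both sexes, either with mouse as a block (0.89, adjusted p = 0.017) or without (0.67). In the cerebral vGluT2 IP the block without those labels ended its call (0.84, adjusted p = 0.0627).

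Further steps differed by cell type. Idi1, the isopentenyl diphosphate isomerase, was 1.13 higher in the SST IP and 0.42 in the cerebellar vGluT2 IP. Ggps1, which makes geranylgeranyl diphosphate, was 0.71 higher in the PV IP, and Pmvk 0.62 higher in the cerebellar Gad2 IP. Sqle was lower in the cerebral Gad2 IP (-0.45), the cerebellar vGluT2 IP (-0.40) and the PV IP (-0.15), and higher in the SST IP (0.25). The PV value lost its call with mouse as a block (-0.20, adjusted p = 0.0833), and the cerebellar vGluT2 value without the vGluT2-line inputs (-0.23). Ebp was 0.46 higher in the cerebellar vGluT2 IP, a call that ended with mouse as a block and the labels of both sexes left out (0.24, adjusted p = 0.304). Lss was lower in the cerebral vGluT2 IP (-0.68) and Msmo1 in the cerebellar one (-0.46). Against Gad2-line inputs alone the cerebellar values stayed called, at 0.45 for Idi1, 0.52 for Ebp and -0.30 for Msmo1 in the vGluT2 IP and 0.58 for Pmvk in the Gad2 IP.

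Cyp46a1 was enriched in the cerebellar Gad2 IP. Its CPM had a lowest, median and highest value of 72.2, 85.6 and 118 there and 27.5, 39.7 and 57.2 in cerebellar input (log2 difference 1.14, SE 0.11, adjusted p = 3.38e-10). No input library reached the IP range, and against Gad2-line inputs alone the difference was again 1.14. In cerebrum, Cyp46a1 was higher in the Gad2 IP (0.33) and the vGluT2 IP (0.30, or 0.18 with adjusted p = 0.226 when mouse was a block) and was not called in PV (-0.17) or SST (-0.07). In the cerebellar vGluT2 IP it was lower (-0.34), but not without the vGluT2-line inputs (-0.24). Stard4 was higher in the SST IP (1.003), the cerebellar vGluT2 IP (0.87, or 0.92 without those inputs) and the cerebral vGluT2 IP (0.53, or 0.64 with adjusted p = 0.0561 when mouse was a block). Abca1 was lower in the cerebral vGluT2 IP (-1.36), the cerebellar Gad2 IP (-0.88, or -1.08 against Gad2-line inputs) and the cerebral Gad2 IP (-0.86, or -0.76 with adjusted p = 0.0607 when mouse was a block).

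Markers of glia were depleted in the same IPs. The 10 oligodendrocyte markers had median log2 differences of -2.59 in the cerebral Gad2 IP, -3.60 in the cerebral vGluT2 IP, -1.45 in the PV IP, -0.70 in the SST IP, -1.89 in the cerebellar Gad2 IP and -2.39 in the cerebellar vGluT2 IP. The 10 astrocyte markers had -2.74, -3.43, -1.46, -1.21, -2.04 and -3.10 in that order. In the cerebellar Gad2 IP 9 of the 10 astrocyte markers were lower than in input, but Aldoc was higher (0.77), and the summed CPM of the 10 was 4309 to 6126 in control IPs and 5514 to 6003 in control Gad2-line inputs. The order of the IPs for Srebf1 (-2.32, -3.04, -1.49, -1.56, -1.56 and -2.55) can be read beside these values, and the part of glial RNA in the members' differences was not tested.

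The effect of the HD allele was then tested in each cell type. In the cerebral Gad2 IP, edgeR called 0 of 28 members (0.0279% of all genes), and DESeq2 called 0; 2 had an unadjusted p under 0.05 (9.15% of all genes). Those were the lanosterol demethylase gene Cyp51 and Msmo1, which acts 2 steps later. Cyp51 CPM had a lowest, median and highest value of 40.3, 44.6 and 47.4 in controls and 30.9, 38.6 and 41.6 in HD (log2 fold change -0.23, SE 0.09, adjusted p = 0.536). Msmo1 had 53.8, 63.8 and 73.4 against 46.1, 54.0 and 60.8 (-0.24, SE 0.10). Both genes had lower medians in HD with ranges that overlapped. Over all members the median was -0.00, against -0.01 over all genes, and microglia markers were above 0 in 10 of 10 cases (median 0.63), while oligodendrocyte markers were below 0 in 9 (median -0.45) and astrocyte markers in 8 (median -0.39). Summed markers of striatal projection neurons were 4173 to 5742 in controls and 2278 to 4274 in HD. The paper reports striatal genes such as Drd1, Penk and Ppp1r1b as downregulated in cerebral Gad2 neurons of HD mice. A smaller share of these cells and lower expression within them cannot be told apart in such sums. The part of glial and striatal cell types was not tested. The all-gene medians by quintile of GC content ran from -0.27 to 0.13, and with the GC trend removed Cyp51 was -0.09 and Msmo1 -0.04.

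**Figure D2:**
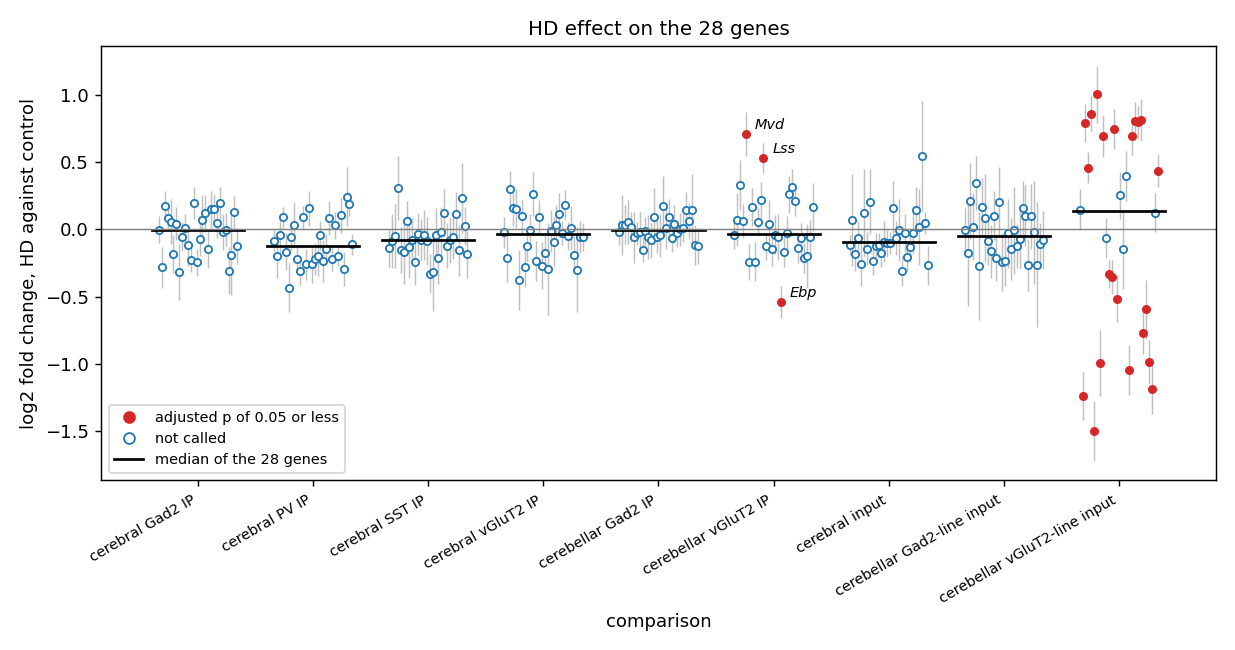
Log2 fold change (HD over control) of each member in the 9 comparisons, with points for members, bars of 1 SE, red for called members and black lines for the median. The 3 red points of the cerebellar vGluT2 IP are Mvd, Lss and Ebp, and 22 members are red in the vGluT2-line cerebellar input.

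In the PV IP, 0 members were called by edgeR (0.034% of all genes) or DESeq2, and 7 had an unadjusted p under 0.05 (4.28%). The members lay below 0 in 19 of 28 cases, with a median of -0.13 against 0.00 over all genes, and 7 of 8 genes from lanosterol to cholesterol were below 0. Sqle had 52.9, 56.2 and 68.5 as lowest, median and highest CPM in controls and 45.1, 44.9, 39.5, 49.1 and 56.2 in HD (log2 fold change -0.31, SE 0.10, adjusted p = 0.854). Of the HD libraries, 4 lay under the control range and the re-sequenced library (re2) lay inside it. Insig1 had 48.0, 54.2 and 56.8 in controls and 46.9, 44.3, 42.0, 46.9 and 51.1 in HD (-0.20, SE 0.08). The same pattern held there, with that library again the highest in HD. HD replicate 3, which had the lowest Sqle and Insig1, also had summed Purkinje cell markers of 852, against 59.7 to 96.6 in the other HD libraries and up to 377 in controls. Without it 0 members were called and 18 were below 0 (median -0.12), with Sqle at -0.26 and Insig1 at -0.16. Summed oligodendrocyte markers separated the groups, with 1142 to 1902 in controls and 884 to 1111 in HD, whereas summed astrocyte markers overlapped. Oligodendrocyte markers were below 0 in 9 of 10 cases (median -0.39) and astrocyte markers in 9 of 10 (median -0.38), and their part was not tested.

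For SST neurons, 0 members were called by edgeR (0% of all genes) or DESeq2, 1 had an unadjusted p under 0.05 (1.41%), and 0 were free of overlap between groups (0.647%). The gene with the low p, Nsdhl, had CPM of 26.4, 30.6, 26.8, 25.7 and 33.2 in controls and 22.0, 23.1, 25.8 and 19.9 in HD (log2 fold change -0.33, SE 0.14). Only the highest HD library touched the control range. Sqle had 64.3, 86.4, 81.7, 73.5 and 101 in controls and 74.4, 72.7, 75.8 and 52.2 in HD (-0.24, SE 0.17), with most of the HD libraries inside the control range. HD replicate 4, the lowest for both genes, also differed in summed Sst and Npy (3068, other HD libraries 988 to 1469), GABA neuron markers (925, others 1167 to 1336) and GC slope (0.51, others -0.38 to -0.07). Without it 0 members were called and 19 were below 0 (median -0.06), with Nsdhl at -0.27 and Sqle at -0.13. All 8 genes from lanosterol to cholesterol were below 0, with a median of -0.08, and 22 of all 28 members were below 0 (median -0.08, against 0.01 over all genes). Of the 5 controls, 3 came from mice whose names begin with Z and all other mice here have names in BR; among BR mice alone 0 were called and 22 were below 0 (median -0.15 against 0.02). Summed oligodendrocyte markers had a median of 2268 in controls and 1804 in HD, and astrocyte markers 2873 and 2067, with overlap in both, and their part was not tested.

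In the cerebral vGluT2 IP, edgeR and DESeq2 each called 0 members (0.00697% of all genes), 1 had an unadjusted p under 0.05 (7.28%), and 0 were free of overlap between groups (0.69%). Mvk had a lowest, median and highest CPM of 15.6, 20.9 and 25.7 in controls and 22.0, 24.7 and 31.1 in HD (log2 fold change 0.30, SE 0.13, adjusted p = 0.677). Ggps1 had 28.5, 47.4 and 50.6 against 28.6, 36.7 and 44.4 (-0.28, SE 0.15). The ranges of both genes overlapped between groups. Control replicate 1 had the highest Mvk and the lowest Ggps1 of the controls, and without it 0 members were called, with Mvk at 0.37 (adjusted p = 0.16) and Ggps1 at -0.37. The median over members was -0.04, against -0.02 over all genes. Mvk was 0.22 and Ggps1 -0.05 after removal of the GC trend. Oligodendrocyte markers were below 0 in 8 of 10 cases (median -0.63) and astrocyte markers in 8 of 10 (median -0.30). Summed markers of striatal projection neurons separated the groups, with 292 to 451 in controls and 213 to 269 in HD. The paper reports downregulation of striatal genes in cerebral vGluT2 or PV neurons as well. Cell share and expression per cell cannot be told apart in such sums. The part of glial and striatal cell types was not tested.

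Cerebellar Gad2 neurons had 0 members called by edgeR (0.0142% of all genes) or DESeq2, and 0 with an unadjusted p under 0.05 (2.3%). Fdft1 had a lowest, median and highest CPM of 33.3, 34.7 and 42.7 in controls and 29.96, 31.8 and 34.8 in HD (log2 fold change -0.15, SE 0.09). Insig2 had 60.7, 81.8 and 98.2 against 71.8, 90.2 and 112 (0.14, SE 0.13). Neither gene separated the groups, and the median over members was -0.01 against 0.00 over all genes. HD replicate 4 stood apart in GC slope (0.61, other HD libraries -0.18 to 0.02), Hmgcs1 (50.3, others 72.3 to 133) and Idi1 (16.1, others 28.4 to 38.55). Its summed granule cell markers were 399 (others 690 to 990). Leaving out any single library gave 0 called members. Summed astrocyte markers were 4309 to 6126 in controls and 3534 to 4840 in HD (7 of 10 below 0, median -0.05). These sums include Aldoc, the astrocyte marker that was higher in this IP than in input. Oligodendrocyte markers were below 0 in 9 of 10 cases (median -0.13) and microglia markers in 10 of 10 (median -0.36), and their part was not tested.

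In the cerebellar vGluT2 IP, 3 of 28 members were called (2.11% of all genes), 2 higher and 1 lower in HD, and the same 3 did not overlap between groups (4.13%). Mvd, which decarboxylates mevalonate diphosphate, had CPM of 22.6, 17.2, 25.8, 22.7 and 18.3 in controls and a lowest, median and highest value of 27.9, 33.2 and 50.5 in HD (log2 fold change 0.71, SE 0.16, adjusted p = 0.0366). Lss, which closes squalene epoxide to lanosterol, had 14.4, 18.5, 16.8, 17.2 and 14.9 in controls against 20.8, 24.0 and 26.2 in HD (0.53, SE 0.11, adjusted p = 0.0244). Ebp had 78.0, 65.2, 68.4, 71.1 and 59.2 in controls against 38.1, 46.6 and 56.7 in HD (-0.54, SE 0.12, adjusted p = 0.034). Mvd and Lss were higher in every HD library than in any control, and Ebp was lower in every HD library. The top of the Mvd range came from HD replicate 4, which also had a GC slope of 0.42 (other HD libraries -0.25 to 0.15) and the lowest summed oligodendrocyte (224), astrocyte (551) and Purkinje cell (67.6) markers of the HD group. Without it the same 3 genes were called (1.89% of all genes), with Mvd at 0.57, Lss at 0.56 and Ebp at -0.60. Removal of the GC trend also left these 3 (4.01%), at 0.62, 0.51 and -0.59.

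The other members of the cerebellar vGluT2 IP were not called. Srebf2 (0.32, SE 0.13, adjusted p = 0.261) brought the members with an unadjusted p under 0.05 to 4 (15.5% of all genes). Mvk (0.33), Srebf1 (0.26), Sqle (0.22) and Scap (0.21) lay above 0, and Idi1 (-0.24), Ggps1 (-0.24) and Stard4 (-0.21) below. The calls were sensitive to single libraries: all 3 ended without control replicate 1, HD replicate 1 or HD replicate 5, and 1 remained without control replicate 2, 3, 4 or 5 or without HD replicate 2 or 3, while every direction held. Replicate number as a block ended all 3 calls. With Xist as a covariate none was called (adjusted p = 0.0744 for Mvd, 0.0969 for Lss and 0.0973 for Ebp). In these libraries Xist was 1.16 to 29.6 CPM in females and 0.0333 or less in males, so its level varied widely among females. With sex by the Y-linked genes all 3 stayed called, at 0.71 for Mvd, 0.51 for Lss and -0.52 for Ebp. Without the mouse labels of both sexes, which left 2 controls, none was called (0.163% of all genes), with Mvd at 0.99, Lss at 0.52 and Ebp at -0.39. Granule cell markers moved with genotype in the same libraries: 5 of 5 were below 0 with a median of -0.44 (1 called), and their summed CPM had a lowest, median and highest value of 4248, 5522 and 5957 in controls and 2700, 3932 and 4770 in HD. Oligodendrocyte markers also had a median of -0.44, and the part of either cell type in the 3 calls was not tested.

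**Figure D3:**
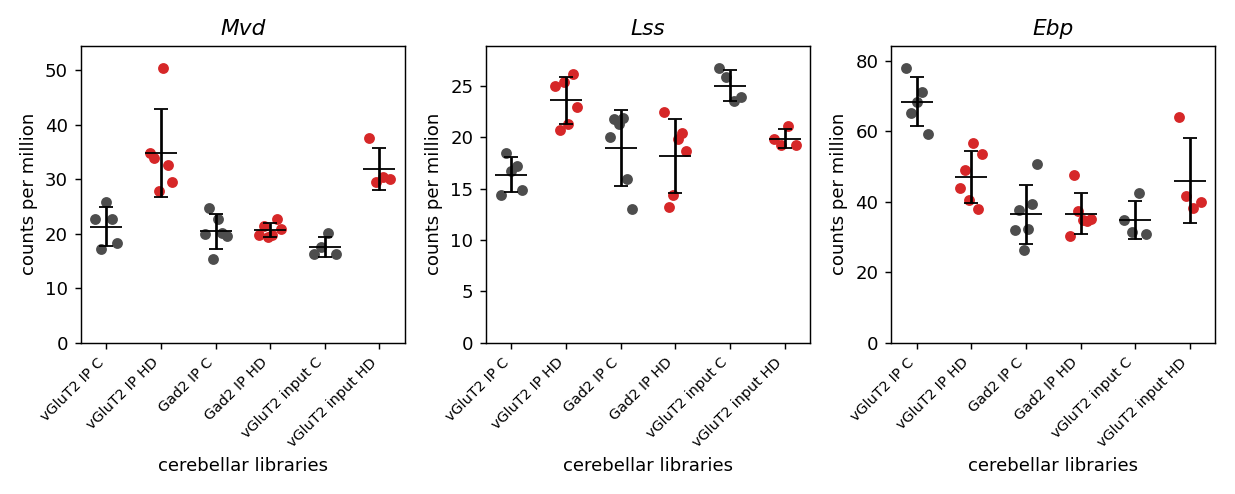
CPM of Mvd, Lss and Ebp in each cerebellar library of the vGluT2 IP, the Gad2 IP and the vGluT2-line input, with means and SD for controls and HD. Mvd and Lss are higher and Ebp lower in every HD library of the vGluT2 IP, whereas in input the log2 fold change is 0.86 for Mvd, -0.33 for Lss and 0.40 for Ebp.

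Total RNA was tested to see whether tissue followed the cell types. In cerebral input of the Gad2, PV and vGluT2 lines, edgeR and DESeq2 called 0 members (0.141% of all genes), 2 had an unadjusted p under 0.05 (6.62%), and 0 were free of overlap (0.0807%). Dhcr7 CPM in controls was 38.6, 52.1 and 50.1 in the Gad2 line, 57.2, 51.3 and 69.3 in the PV line and 64.9, 58.5 and 52.3 in the vGluT2 line. In HD it was 28.6, 44.8 and 44.1, then 61.1, 48.4 and 53.7, then 36.0, 45.5 and 38.4 (log2 fold change -0.31, SE 0.11, adjusted p = 0.476). All HD values of the vGluT2 line were under their controls, and the ranges overlapped in the other 2 lines. Fdft1 was the second gene (-0.23, SE 0.11), and 20 of 28 members were below 0 with a median of -0.10 against 0.02 over all genes. The all-gene medians by quintile of GC content fell from 0.26 to -0.12, and removal of the trend left 0 members called and 23 below 0 (median -0.10 against 0.01), with Dhcr7 at -0.26 (adjusted p = 0.0941). Summed oligodendrocyte markers were 2257 to 3314 in controls and 1922 to 2766 in HD (7 of 10 below 0, median -0.15), and astrocyte markers 3443 to 4291 and 2963 to 3665 (6 of 10 below 0, median -0.04). Their medians were lower in HD in each line, and their part was not tested.

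In Gad2-line cerebellar input, edgeR and DESeq2 called 0 members (0% of all genes), 0 had an unadjusted p under 0.05 (2.22%), and 1, Nsdhl, did not overlap (6.12%). Mvd had 23.2, 17.4 and 23.9 in controls and 27.5, 30.8 and 23.5 in HD (log2 fold change 0.34, SE 0.20). Insig1 had 77.5, 78.8 and 63.1 against 59.7, 50.9 and 72.2 (-0.26, SE 0.20). In each case 1 HD library lay within the control range. Summed oligodendrocyte markers separated the groups, with 2097, 2503 and 2391 in controls and 1488, 1600 and 1846 in HD (8 of 10 below 0, median -0.43), and so did astrocyte markers, with 5514 to 6003 and 4360 to 5280 (9 of 10 below 0). Their part was not tested. When libraries of both lines were fitted together with line as a covariate, 11 members were called (24.5% of all genes), a count that includes the vGluT2-line libraries whose GC slopes split by genotype.

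The vGluT2-line cerebellar input gave 22 called members (51.7% of all genes), 11 higher and 11 lower in HD, with 22 at an unadjusted p under 0.05 (58.1%) and 21 not overlapping (47.8%). With the GC trend of each library removed, the count was 13 (33.4% of all genes), 9 higher and 4 lower, and with sex as a covariate it was 20 (47.8%). Idi1 had CPM of 56.6, 50.7, 36.9 and 67.8 in controls and 13.9, 24.6, 16.2 and 20.2 in HD (log2 fold change -1.50, SE 0.22, adjusted p = 0.000525). Hmgcs1 had 107, 113, 98.6 and 163 against 45.4, 52.1, 46.4 and 60.5 (-1.24, SE 0.18). Fdps had 39.0, 41.1, 48.5 and 48.7 against 135, 76.9, 73.2 and 70.4 (1.005, SE 0.21), and Scap 83.5, 88.1, 96.5 and 72.2 against 194, 138, 134 and 132 (0.81, SE 0.16). The groups did not overlap for any of these, and HD replicate 1 was the highest library for both Fdps and Scap. Neighbouring steps of the isoprenoid branch thus differed in sign, and so did the regulators, with Srebf1 (0.80), Srebf2 (0.80) and Scap above 0 and Insig1 (-0.77) and Insig2 (-0.60) below. After removal of the GC trend these values were -0.55 for Idi1 and -0.42 for Hmgcs1, 0.92 for Fdps, 0.33 for Srebf1 and Srebf2 each, -0.56 for Insig1 and, without a call, -0.13 for Insig2.

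Base composition ran parallel to these values. Across all genes, the median log2 fold change by quintile of GC content, from low to high, was -1.02, -0.46, 0.04, 0.36 and 0.51. The 6 members of the lowest quintile (Hmgcs1, Idi1, Ggps1, Hsd17b7, Sc5d and Stard4) were all below 0, and the 7 of the highest quintile (Mvk, Pmvk, Mvd, Srebf1, Srebf2, Scap and Cyp46a1) were all above 0, from 0.44 to 0.86. With the GC trend removed, Sc5d, which desaturates lathosterol, moved from -1.05 to -0.21, Stard4 from -0.98 to -0.28 and Scap from 0.81 to 0.32, and all 3 lost their calls. Ggps1 moved from -0.997 to 0.0839. Members of the other quintiles included Abca1 (-1.19, or -0.90 with the GC trend removed) and Tm7sf2 (0.75, or 0.63). Lss and Ebp were not called in this input with the GC trend removed (-0.18 and 0.29). The summed oligodendrocyte markers had a median of 2780 in controls and 1832 in HD, and microglia markers 175 and 272. Neither sum overlapped between the groups, so genotype, GC slope and these markers moved together. The part of these cell types was not tested.

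**Figure D4:**
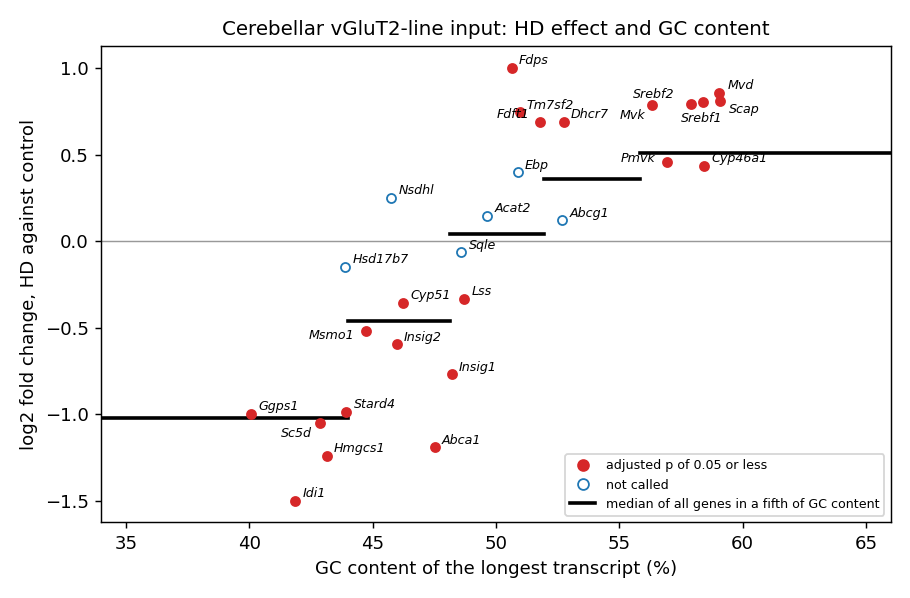
Log2 fold change (HD over control) of the 28 members in vGluT2-line cerebellar input against the GC content of the longest transcript (%), with the medians over all genes in quintiles of GC content. Members of the lowest quintile lie below 0 and those of the highest quintile above 0.

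Differences between cell types in the HD effect were tested directly. For vGluT2 minus Gad2 in cerebellum, edgeR and DESeq2 called 0 members (0.107% of all genes), with 3 at an unadjusted p under 0.05 (7.08%): Mvd (0.66, SE 0.20, adjusted p = 0.323), Lss (0.56, SE 0.20) and Ebp (-0.58, SE 0.21). The changes of these 3 genes in the vGluT2 IP were therefore not shown to differ from those in the Gad2 IP. For cerebellum minus cerebrum in vGluT2 neurons, 0 were called by either tool (0.323%), with 3 at an unadjusted p under 0.05 (7.45%), among them Ebp (-0.52, SE 0.20) and Mvd (0.57, SE 0.23). For vGluT2 minus Gad2 in cerebrum, 0 were called by either tool (0%) and 0 had an unadjusted p under 0.05 (1.44%), and Lss (0.37) and Abcg1 (-0.20) were within 2 errors of 0. For cerebellum minus cerebrum in Gad2 neurons, 0 were called by either tool (0%) and 0 had an unadjusted p under 0.05 (5.37%), with Stard4 at 0.36 and Abcg1 at -0.26.

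Within the vGluT2 line of cerebellum, the HD effect in the IP was compared with that in input, a comparison added after the data had been seen and resting on the same 8 input libraries. It called 14 members (28.6% of all genes), 7 with a more positive and 7 with a more negative effect in the IP, and 18 had an unadjusted p under 0.05 (40.3%). With the GC trend removed 6 were called (18.5%), 1 more positive and 5 more negative. Without the mouse labels of both sexes 4 were called (11.8%), Hmgcs1, Idi1, Lss and Stard4, and with mouse as a block in that fit 0 (5.11%). Lss (0.86, SE 0.15, adjusted p = 0.000246) and Ebp (-0.93, SE 0.22, adjusted p = 0.00326) had IP effects opposed in sign to those in input (-0.33 and 0.40), and both stayed called with the GC trend removed (0.68 and -0.90), while Ebp lost its call without those labels (-0.80, adjusted p = 0.0759). Hmgcs1 (1.30) and Idi1 (1.24) differed mainly through input, since their IP effects were 0.07 and -0.24, and both lost their calls with the GC trend removed (0.56 and 0.41).

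Other genes of sterol and lipid metabolism were followed in a list of 44, covering SREBP processing, lipoprotein uptake, oxysterol enzymes, fatty acid synthesis and prenylation. The HD effect gave 0 calls among them by edgeR in every IP, in cerebral input and in Gad2-line input (at most 2.11% of all genes). Unadjusted p was under 0.05 for 3 in the cerebral Gad2 IP (9.15% of all genes), 3 in the cerebral vGluT2 IP (7.28%) and 4 in the PV IP (4.28%). The count was 0 in the SST IP (1.41%), 1 in the cerebellar Gad2 IP (2.3%) and 8 in the cerebellar vGluT2 IP (15.5%). In vGluT2-line input 20 of 43 were called (51.7% of all genes), 10 in each direction, led by the prenyltransferase subunit gene Pggt1b (-2.24) and the elongase gene Elovl6 (-1.66), and 15 were called there with the GC trend removed (33.4%), 9 higher and 6 lower. Relative to input, 34 of 43 were called in the cerebral vGluT2 IP (63.6% of all genes), 8 higher and 26 lower, led by the desaturase genes Scd1 (-3.18) and Fads2 (-2.28), and 36 of 44 in the PV IP (73.2%), 21 higher and 15 lower, led by the lipoprotein receptor gene Lrp1 (2.45). In control vGluT2 IPs, cerebellum against cerebrum, 29 of 43 were called (63.2%), 18 higher and 11 lower, with the oxysterol receptor gene Nr1h3 at 3.98 and the oxysterol hydroxylase gene Cyp7b1 at -3.30. In control Gad2 IPs, 22 of 43 were called (51.1%, so at the rate of all genes), 17 higher and 5 lower in cerebellum, with Icmt, which methylates prenylated proteins, at 4.31. PV against SST neurons differed in 9 of 43 (18.2%), 6 higher and 3 lower in PV, led by Acss2, which makes cytosolic acetyl-CoA (0.82).

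The genome context of the members was read from the annotation and from RefSeq promoter records (GRCm38.p6, 250 bases before to 50 after the start), which held 23 of the 28. The NF-Y box, spelled CCAAT on either strand, occurred in 20 of the 23, against 41.1% of 27025 genes and 37.4% of 32851 promoters. The core sterol regulatory element, spelled TCACNCCAC, occurred in 1, Hmgcs1, against 1.44% of genes. The 3 genes called in the cerebellar vGluT2 IP are Mvd (ENSMUSG00000006517.5, chromosome 8, 122433601 to 122443422), Lss (ENSMUSG00000033105.12, chromosome 10, 76531588 to 76557138) and Ebp (ENSMUSG00000031168.14, chromosome X, 8185329 to 8193512). Lss shares 381 exonic bases with 4930483K19Rik on the other strand. On the same strand, Fdps shares 1124 exonic bases with the protein-coding gene Gm43738 and Tm7sf2 shares 532 with Vps51, and how the counts were divided between them was not tested. Their promoters, from the RefSeq records, are printed 5′ to 3′ beside that of Hmgcs1, with the NF-Y box (ATTGG on the reverse strand) and the core element in capitals. The spans are 119690101 to 119690400 on the plus strand of chromosome 13 for Hmgcs1, 122443373 to 122443672 on the minus strand of chromosome 8 for Mvd, 76531355 to 76531654 on the plus strand of chromosome 10 for Lss and 8193463 to 8193762 on the minus strand of chromosome X for Ebp.
Hmgcs1: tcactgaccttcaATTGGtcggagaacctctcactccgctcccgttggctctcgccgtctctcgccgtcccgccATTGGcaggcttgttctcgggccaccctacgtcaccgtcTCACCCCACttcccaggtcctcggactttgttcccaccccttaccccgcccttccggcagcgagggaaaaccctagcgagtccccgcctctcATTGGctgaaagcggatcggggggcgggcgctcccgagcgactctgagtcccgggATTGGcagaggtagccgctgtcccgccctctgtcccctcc
Mvd: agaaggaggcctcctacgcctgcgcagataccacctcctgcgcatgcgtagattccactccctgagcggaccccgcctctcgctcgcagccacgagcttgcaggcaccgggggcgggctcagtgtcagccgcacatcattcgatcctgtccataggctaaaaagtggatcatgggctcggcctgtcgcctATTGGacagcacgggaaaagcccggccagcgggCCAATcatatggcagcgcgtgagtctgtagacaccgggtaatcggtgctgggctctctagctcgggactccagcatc
Lss: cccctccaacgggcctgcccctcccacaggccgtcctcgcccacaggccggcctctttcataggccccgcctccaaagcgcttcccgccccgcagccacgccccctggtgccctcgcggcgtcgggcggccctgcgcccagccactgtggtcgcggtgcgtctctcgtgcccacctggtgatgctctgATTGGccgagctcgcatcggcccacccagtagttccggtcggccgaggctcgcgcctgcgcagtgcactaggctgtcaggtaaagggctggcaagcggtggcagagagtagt
Ebp: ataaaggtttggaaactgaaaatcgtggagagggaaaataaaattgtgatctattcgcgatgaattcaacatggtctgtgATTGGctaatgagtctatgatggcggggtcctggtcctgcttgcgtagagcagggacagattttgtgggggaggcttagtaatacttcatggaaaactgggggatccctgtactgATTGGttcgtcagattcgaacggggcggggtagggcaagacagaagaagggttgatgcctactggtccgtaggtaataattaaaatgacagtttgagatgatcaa
Hmgcs1 carries 4 NF-Y boxes and the core element between them, while Mvd and Ebp carry 2 boxes each and Lss carries 1.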

How the data were processed

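The authors sequenced poly(A)-selected, stranded TruSeq libraries of RiboTag IP and total RNA as paired reads of 100 bp, sequenced 3 HD IP libraries again at 150 bp, and processed the reads with nf-core/rnaseq (STAR, Salmon). The deposited table holds estimated counts per gene and library, of which 8.57% were not whole numbers, so all were rounded to whole numbers. Whether these counts had been scaled by transcript length is not known, and the levels per length depend on it. The submitters' processing notes name GRCm38.p6 and no annotation release; gene types, positions, lengths and GC content were taken from GENCODE M21, which held 55141 of 55401 identifiers. The 92 ERCC spike-in controls (at most 4.45% of a library) were left out.

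Genes were tested with edgeR 4.0.16 (quasi-likelihood, TMM) in R 4.3.3 over protein-coding genes with a mean count above 10 in the comparison, and all 28 members passed in each. A gene was called at a Benjamini-Hochberg adjusted p of 0.05 or less over all genes tested, and errors are SE of the log2 value. CPM values were scaled by TMM within each comparison, so a library has slightly different values in different comparisons, and several comparisons share the same libraries. Named genes were the called or lowest-p members of each comparison and the fixed genes Hmgcs1, Sqle, Srebf1, Srebf2, Insig1 and Cyp46a1. Members and lists were chosen with earlier results of these data known. Levels were CPM per kilobase of summed exons. The scripts were tested on simulated data with known log2 changes of 1 or 2. Of changes of 1, edgeR recovered 63.3% for the HD effect in the cerebellar vGluT2 IP and 78% in cerebral input. For the difference of vGluT2 minus Gad2 in cerebellum it recovered 43.9%. Of changes of 2 it recovered 98%, 97% and 80.8% in that order. Smaller changes were not simulated, so a count of 0 called members does not show that none changed.

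IP and input of 1 line, and the 2 regions, often came from the same mice, and mouse was a block in an alternative fit. For 3 control mice of the vGluT2 line, Y-linked genes gave libraries of 1 label different sexes. Other alternatives were DESeq2 1.42.0, its size factors, CPM without TMM, other filters and gene types, a replicate block, Xist as a covariate, all IPs in 1 fit, other choices of input, the second sequencing run left out, each library left out in turn and, added after the data had been seen, removal of the GC trend of each library, sex by Y-linked genes as a covariate, those 3 mouse labels left out, Gad2-line inputs alone for the cerebellar vGluT2 IP, and the comparison of IP with input effects in the cerebellar vGluT2 line.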

Additional observations from a re-analysis of the deposited data

Results flagged for a closer look

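A library far from the others of its group was found for 12 of 104 groups of named members tested, and about 1 in 20 groups would be marked by chance. Sqle was 52.2 CPM in replicate 4 of the HD SST IP, against 72.7 to 75.8 in the others. Fdft1 was 42.7 in replicate 5 of the control cerebellar Gad2 IP, against 33.3 to 35.9, and Pmvk was 79.6 in replicate 2 of that group, against 50.2 to 57.5. Mvd was 50.5 in replicate 4 of the HD cerebellar vGluT2 IP, against 27.9 to 34.9. In HD vGluT2-line cerebellar input, replicate 1 was high for Fdps (135, others 70.4 to 76.9), Mvd (37.6, others 29.4 to 30.5) and Scap (194, others 132 to 138). In the control cerebellar vGluT2 IP, Abca1 was 34.7 in replicate 2 (others 20.4 to 23.2), Cyp46a1 was 45.3 in replicate 5 (others 24.2 to 29.7) and Hmgcs1 was 70.9 in replicate 1 (others 107 to 113). Abcg1 was 78.0 in replicate 1 of the control cerebral Gad2 IP (others 95.4 to 103), and Tm7sf2 was 7.72 in replicate 1 of the control PV IP (others 10.9 to 12.0).

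The HD effect differed between IP and input of the cerebellar vGluT2 line, by the test of the difference itself, for 10 named members. The log2 differences were 1.30 for Hmgcs1, 1.24 for Idi1, 0.99 for Abca1, 0.87 for Sc5d, 0.86 for Lss and 0.76 for Stard4. They were -0.93 for Ebp, -0.83 for Fdps, -0.72 for Dhcr7 and -0.71 for Tm7sf2. With the GC trend of each library removed, called members fell from 14 (28.6% of all genes) to 6 (18.5%), 1 positive and 5 negative, and among those lost were Hmgcs1 (0.56), Idi1 (0.41), Abca1 (0.68) and Tm7sf2 (-0.66). Without the 3 control mouse labels whose libraries differ in sex, 4 were called (11.8%): Hmgcs1 (1.16), Idi1 (1.13), Stard4 (0.91) and Lss (0.77). Abca1 and Tm7sf2 each lost the call when any 1 of 11 of the 19 libraries was left out.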

How the results depend on the processing

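Of 220 counts of called members under other settings, 207 stayed within 1.5 times of the main count, and of 1201 log2 values 1089 kept their direction and their side of the threshold. The 207 include main counts of 0 that stayed 0, so they do not measure how stable the other counts are. In the cerebellar vGluT2 IP, the 3 HD calls became 0 with Xist as a covariate and 0 with replicate number as a block. There, 2 of 5 correlations of same-numbered libraries exceeded 0.1 (range -0.0654 to 0.427). So few correlations cannot decide whether the numbers mark pairs of mice, and the block result stands as a limit. In no comparison did all exceed 0.1, although the 3 pairs of Gad2-line cerebral input had 0.911, 0.389 and 0.777 and lower Dhcr7 in HD in each; the block gave 0 calls in cerebral input, with Dhcr7 at -0.32. The replicate block also took PV against SST from 7 to 0. Both lines in 1 fit gave 11 in place of 0 in Gad2-line input and 11 in place of 22 in vGluT2-line input, and removal of the GC trend gave 13 there. The IP minus input difference went from 14 to 6 with the GC trend removed and to 7 with mouse as a block, and cerebral vGluT2 IP against input went from 16 to 10 with mouse as a block. Mouse labels whose libraries differ in sex void part of these blocks: without them the 3 HD calls of the cerebellar vGluT2 IP became 0, the IP minus input difference gave 4, or 0 with the block, and cerebral vGluT2 IP against input 5 with the block. No other count moved by over 1.5 times under a block. In each case the cause was not tested.

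Leaving out each library in turn gave 0 to 3 members in the cerebellar vGluT2 IP, 18 to 22 in vGluT2-line input, 10 to 17 for the IP minus input difference, 17 to 17 for cerebellar against cerebral vGluT2, 12 to 16 for cerebellar vGluT2 against Gad2, 1 to 7 for PV against SST and 0 to 0 for the HD effect in every other comparison and for differences tested this way.

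Directions reversed for Ggps1 in vGluT2-line input with the GC trend removed (0.0839), for Cyp46a1 in the SST IP against input without TMM (0.10) and in cerebral vGluT2 against Gad2 with DESeq2 (0.00557) or its size factors (0.00565). With mouse as a block they reversed for Insig1 in the cerebral Gad2 IP (-0.0520) and the PV IP (0.00330) and for Sqle in the cerebellar Gad2 IP (0.14) against input, and without the labels of both sexes likewise (-0.0651, 0.00267 and 0.15). Without 1 library, Hmgcs1 in cerebellar vGluT2 against Gad2 ranged from -0.0288 to 0.118, and the Srebf1 log2 fold change, Control IPs, PV against SST ranged from -0.0863 to 0.0206, so both reversed. The cause was not tested. With the longest transcript in place of summed exons, 27 of 36 levels per length moved by more than their SD. Depth limits Abca1 most, which had the lowest count of any member, 76 in 1 library.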
